A study of Mus musculus with 4 samples.

Results

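The genes described here encode the machinery of mitosis: the kinetochore, the spindle assembly checkpoint, the mitotic kinases and cyclins, and the proteins of the spindle, the midzone and mitotic exit. They are 48 genes taken by symbol from the 52200 rows of a deposited expression table. Cenpa and the kinesins other than Cenpe were not included. All 48 symbols were found and all 48 were among the 13111 genes with enough signal to be tested. RNA was measured in AML12 cells, a mouse hepatocyte line derived from the liver of a mouse transgenic for transforming growth factor alpha. The cells carried a lentiviral short hairpin, either a control hairpin (shCtrl, 2 libraries) or a hairpin against Safb (shSafb, 2 libraries), and were collected 5 days later. All 4 libraries came from cells grown with 10% fetal bovine serum, an ITS supplement and 0.1 µM dexamethasone, a glucocorticoid. The labels do not say how many hairpins were used against Safb, whether infected cells were selected or cloned, or whether the libraries of a group came from separate cultures. The p-values therefore measure only the spread between these libraries, which may be technical. The product of Safb, scaffold attachment factor B, sits in the nuclear matrix and binds both RNA and DNA. The study asked about its part in heterochromatin built on major satellite repeats, which flank mouse centromeres.

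Kinetochores are protein assemblies that form on centromeric chromatin and hold spindle microtubules. An inner layer contacts the centromere, an outer layer led by the Ndc80 complex binds microtubules, and the spindle checkpoint delays anaphase until every kinetochore is attached. Cyclin B with Cdk1 drives entry into mitosis, and the anaphase promoting complex with Cdc20 ends it by marking cyclin B and securin for destruction. Most of these genes are transcribed mainly in late S phase, G2 and mitosis, repressed in resting cells by the DREAM complex and activated by B-Myb with MuvB and by Foxm1, often through a promoter element named the cell cycle genes homology region (CHR) and through CCAAT boxes bound by NF-Y. Adult hepatocytes rarely divide, while AML12 cells proliferate in culture.

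Values are TPM, a share of all transcripts that takes gene length into account, so levels can be compared between genes. A change is the difference between shSafb and shCtrl in log2(scaled TPM + 1), given with the standard error of the limma fit over all tested genes. It understates the fold change of genes near 1 TPM. A gene is called higher or lower where its Benjamini-Hochberg adjusted p over all 13111 tested genes is under 0.05. Safb itself had 23.8 and 23.3 TPM in the shCtrl libraries and 15.8 and 15.0 TPM in the shSafb libraries, a change of -0.56 ± 0.07 (1.53-fold lower, adjusted p = 0.00411). Its RNA was thus lower in both shSafb libraries, and about 1.5-fold is the extent of the knockdown in these data. Ranked by expression, the libraries correlated at 0.99 within shCtrl, 0.989 within shSafb and 0.951 to 0.952 between groups. The hepatocyte markers Ttr (2177 to 2312 TPM), Krt8 (2119 to 2332 TPM) and Hnf4a (157 to 169 TPM) were present in every library. Of 12 hepatocyte markers, 4 were higher in shSafb (among them Afp, 2.17 to 27.3 TPM, and Trf, 2440 to 6800 TPM) and 3 lower (Alb, 362 to 124 TPM, with Apoa1 and Foxa2). Over all tested genes the shares called were 21.9% higher and 22.4% lower, so these counts are no result about the markers as a list. The 9 stellate cell and fibroblast markers together reached 2.83 to 3.47 TPM, with Lum and Lrat at 0 in every library. Endothelial markers summed to at most 0.513 TPM over 7 genes, with Cdh5, Kdr, Lyve1 and Tie1 at 0. The 7 macrophage and leukocyte markers summed to 121.5 and 116.7 TPM in shCtrl and 66.6 and 68.6 TPM in shSafb, nearly all of it Cd14, which fell. Adgre1, Clec4f and Itgam were at 0 in every library. Csf1r, low throughout, had 0.2394 and 0.4501 TPM in shCtrl and 1.92 and 1.72 TPM in shSafb (5.28-fold). It reached the level tested only through the shSafb libraries, so its call as higher is not used here. Ptprc, below the level tested, had 0.303 and 0.272 TPM against 0.452 and 0.452 TPM. The share of TPM from mitochondrial genes also differed, at 0.845% and 0.703% in shCtrl and 0.318% and 0.343% in shSafb; the part of these differences in the results below was not tested. TPM keeps no read counts, so the depth behind each value is unknown.

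Of the 48 mitotic genes, 43 were higher in the shSafb libraries, 1 was lower and 4 did not pass the test. Over all tested genes, 21.9% were called higher and 22.4% lower. Under the added condition of a 1.5-fold or larger difference, 41 of the 48 were higher, against 9.94% of all tested genes. In 45 of the 48, both shSafb libraries lay above both shCtrl libraries, which was so for 35.5% of all tested genes. The median change of the 48 was 1.17, against 0.00 over all tested genes, whose middle 50% ran from -0.31 to 0.29. The 95th percentile of all tested genes was 0.89, and 36 of the 48 lay above it. In TPM the median fold was 2.44, 33 genes rose at least 2-fold and 10 at least 3-fold. Their summed level was 485.9 and 478.4 TPM in the shCtrl libraries and 1027 and 1025 TPM in the shSafb libraries, 2.13-fold higher. Most of these genes were modestly expressed in control cells: their median level in shCtrl was 7.69 TPM, below the 16.6 TPM of all tested genes, and in shSafb it was 16.3 TPM. All 48 reached at least 1 TPM in every library, so none entered the test through the group where it was high. In bulk RNA, more cells in mitosis or G2 and more RNA per cell cannot be told apart.

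**Figure D1:**
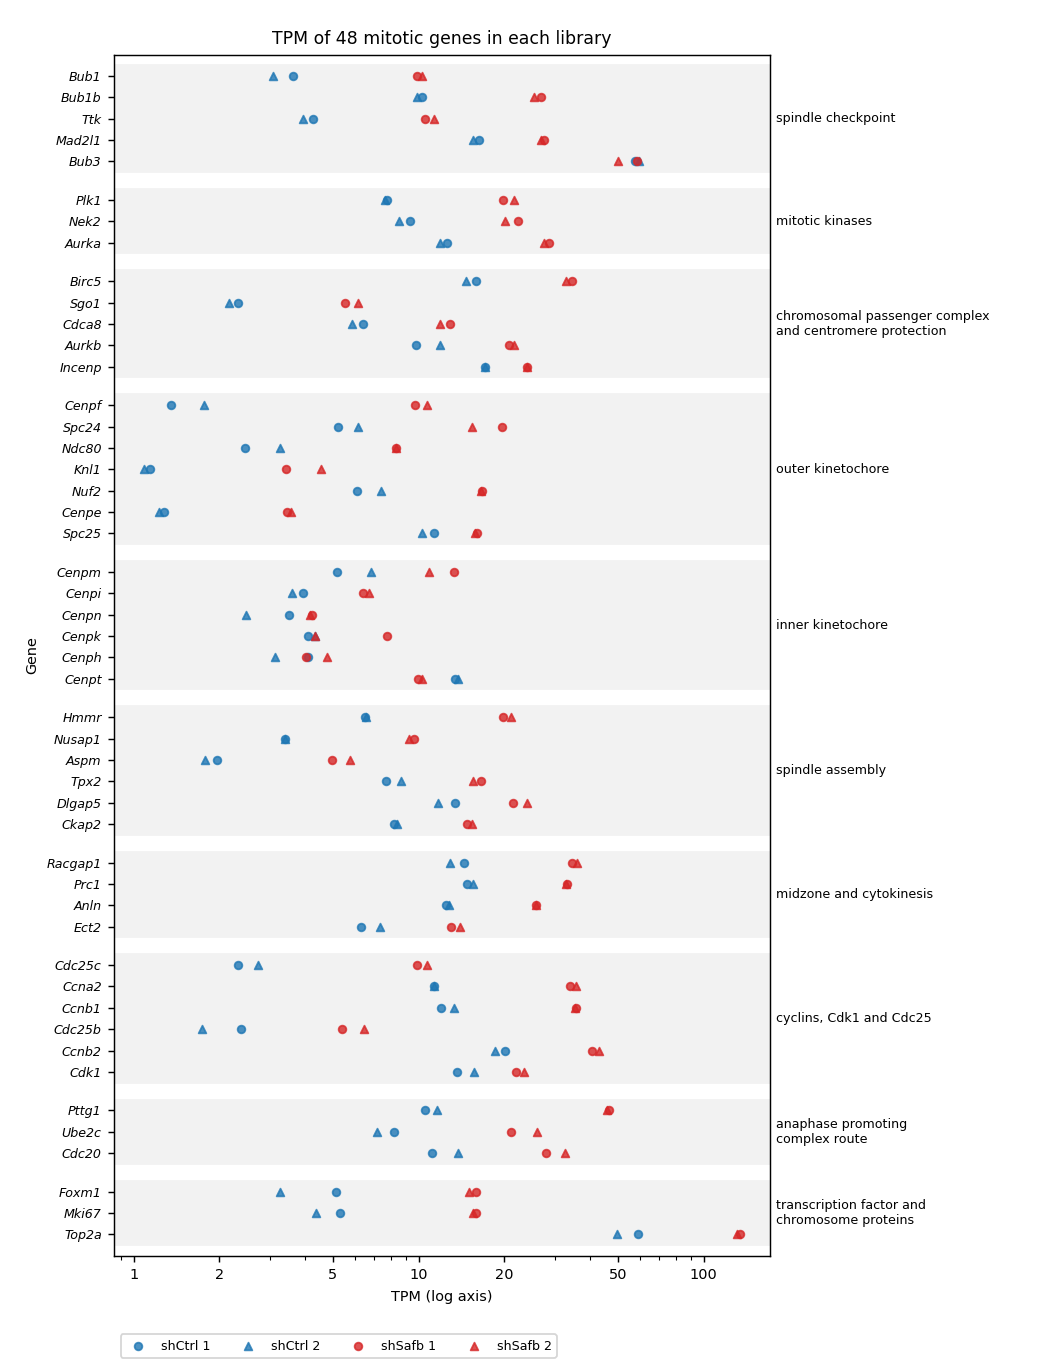
TPM of the 48 mitotic genes in each of the 4 libraries, grouped by role, on a log axis; each point is 1 library, marked by hairpin and replicate. In 45 genes both shSafb points lie above both shCtrl points; Cenpt is the gene with both below, and Bub3 and Cenph overlap.

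**Figure D2:**
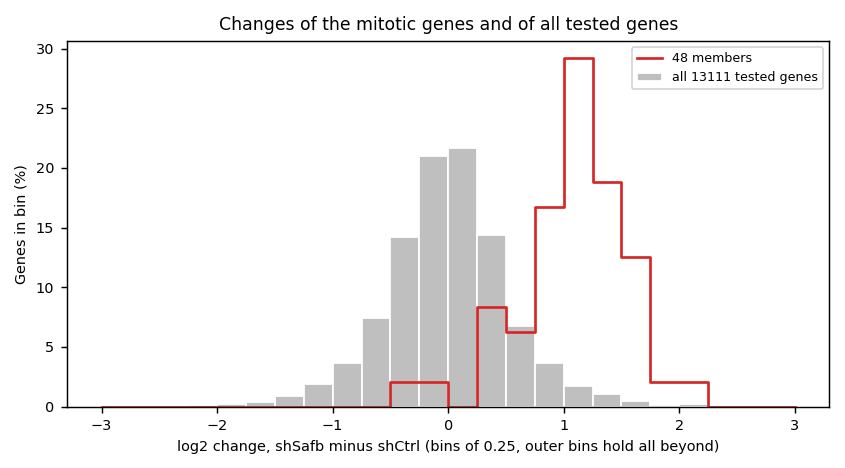
Percent of genes in each bin of log2 change (shSafb minus shCtrl), as grey bars for all 13111 tested genes and as an outline for the 48 mitotic genes; the outer bins hold all values beyond them. All tested genes centre on 0.00, while the mitotic genes centre on 1.17 and 36 of them lie beyond the 95th percentile of all genes (0.89).

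Because these genes share known promoter elements, their start regions are shown before the values. RefSeq promoter windows of GRCm38.p6, running from 250 bases before to 50 bases after the transcription start, were matched by symbol for 40 of the 48 genes; Aurkb, Ccna2, Cdc25c, Dlgap5, Foxm1, Incenp, Spc24 and Tpx2 were not matched. The core letters of the CHR were searched as TTTGAA or TTCGAA on both strands, the second being its own reverse complement, and the CCAAT box as CCAAT on both strands. The stretches below run from 120 bases before to 29 bases after the first transcribed base, 5′ to 3′ on the gene's strand, with CHR core and CCAAT letters in capitals. The first 6 genes have CHR core letters just past the start and rose in shSafb.
Bub1 (chr2:127831830-127831979, minus strand): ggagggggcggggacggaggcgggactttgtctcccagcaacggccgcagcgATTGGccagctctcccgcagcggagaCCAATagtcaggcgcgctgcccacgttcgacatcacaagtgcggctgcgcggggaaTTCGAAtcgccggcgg
Ttk (chr9:83834569-83834718, plus strand): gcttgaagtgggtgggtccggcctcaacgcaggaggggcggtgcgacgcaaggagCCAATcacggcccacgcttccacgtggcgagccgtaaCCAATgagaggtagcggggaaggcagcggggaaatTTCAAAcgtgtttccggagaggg
Cenpf (chr1:189688057-189688206, minus strand): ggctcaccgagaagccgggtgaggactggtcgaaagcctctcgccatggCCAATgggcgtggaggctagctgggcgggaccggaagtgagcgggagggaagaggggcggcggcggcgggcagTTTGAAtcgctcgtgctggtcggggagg
Hmmr (chr11:40733408-40733557, minus strand): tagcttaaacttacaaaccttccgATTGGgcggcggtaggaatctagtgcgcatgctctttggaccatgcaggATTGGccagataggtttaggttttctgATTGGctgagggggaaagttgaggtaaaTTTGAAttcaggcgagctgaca
Racgap1 (chr15:99651627-99651776, minus strand): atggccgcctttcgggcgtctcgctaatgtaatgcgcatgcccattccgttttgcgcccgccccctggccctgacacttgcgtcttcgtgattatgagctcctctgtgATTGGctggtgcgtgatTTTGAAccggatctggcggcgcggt
Ccnb2 (chr9:70421525-70421674, minus strand): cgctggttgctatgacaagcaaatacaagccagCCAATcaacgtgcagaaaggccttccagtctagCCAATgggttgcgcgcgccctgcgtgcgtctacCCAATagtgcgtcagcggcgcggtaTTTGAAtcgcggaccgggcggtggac

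In these 6 windows the first base of the CHR core letters lies 14, 7, 2, 8, 5 and 4 bases past the first transcribed base, in the order given. Ccnb2 carries CCAAT letters beginning 87, 54 and 21 bases before the start, an arrangement of regularly spaced boxes for which cyclin B promoters are known, and Hmmr carries 5 such matches in its whole window, 3 of them within the stretch printed. The next 3 genes contrast in letters or in response. Ube2c, with the core letters before the start, rose. Pttg1 has none in its window and rose more than 4-fold, and Cenpt has none in its window and is the gene that fell. In GENCODE both genes begin further upstream, at 43426251 for Pttg1 and 105853278 for Cenpt. Their windows reach only to 43426231 and 105852258, so letters at those starts were not searched.
Ube2c (chr2:164769809-164769958, plus strand): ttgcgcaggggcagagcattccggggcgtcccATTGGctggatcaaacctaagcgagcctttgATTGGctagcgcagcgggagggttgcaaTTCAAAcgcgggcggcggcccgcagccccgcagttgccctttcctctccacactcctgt
Pttg1 (chr11:43425952-43426101, minus strand): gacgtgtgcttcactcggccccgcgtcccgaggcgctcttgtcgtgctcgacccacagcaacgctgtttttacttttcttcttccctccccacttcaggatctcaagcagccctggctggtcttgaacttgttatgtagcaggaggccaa
Cenpt (chr8:105851979-105852128, minus strand): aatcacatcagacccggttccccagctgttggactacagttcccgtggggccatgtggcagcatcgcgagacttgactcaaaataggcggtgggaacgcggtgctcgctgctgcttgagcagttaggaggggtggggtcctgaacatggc

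CHR core letters were in the windows of 28 of the 40 genes (70.0%), against 21.7% of the 27025 genes in the same table. Narrowing the window to 100 bases before the start left 27 of 40 genes (67.5%), against 9.87% of all genes. CCAAT letters were in 31 of the 40 (77.5%), against 41.1% of all genes. The letters GGCGGGA, which resemble an E2F site, were in 12 of the 40 (30%), against 12.7%. The 40 genes have 45 windows, and overlapping windows of 1 gene can hold the same site. Counted once per gene, 19 of their 37 distinct CHR core sites (51.4%) began at or after a start, against 786 of 6917 in all other genes (11.4%). A match is a run of letters and says nothing about binding. Genes with and without the core letters in their windows rose. Of the 28 with them 26 did (median change 1.18), Bub3 and Cenpn being the others. Of the 12 without them 9 did (median change 1.07), among them Pttg1, Ccnb1 and Birc5. Mad2l1 is also among these 12, and its GENCODE start at 66535390 lies past its window, which ends at 66535270. As for Pttg1 and Cenpt, letters at that start were not searched. The difference between those medians was not tested. The 9 genes printed were chosen after their values were seen.

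**Figure D3:**
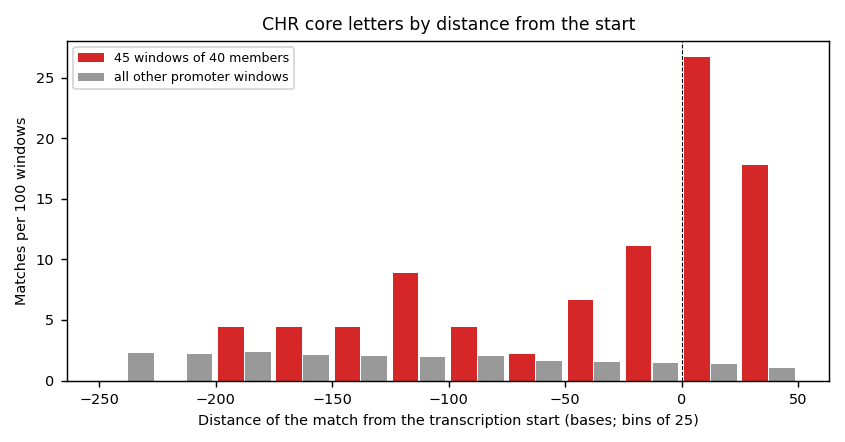
Number of CHR core matches per 100 promoter windows in 25-base bins of distance from the transcription start, for the windows of the mitotic genes and for all other windows in the RefSeq table; a site in overlapping windows of 1 gene is counted in each. In the first 25 bases after the start there are 26.7 matches per 100 mitotic gene windows against 1.4 per 100 others, and in the next 25 bases 17.8 against 1.06.

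Among the 5 spindle checkpoint genes, 4 rose and Bub3 did not pass the test. Bub1, a kinase that recruits checkpoint proteins to kinetochores, had 3.64 and 3.09 TPM in shCtrl and 9.87 and 10.3 TPM in shSafb (2.99-fold, change 1.37 ± 0.10, adjusted p = 0.00138). Bub1b, which encodes the BubR1 part of the mitotic checkpoint complex, had 10.3 and 9.88 TPM against 26.9 and 25.4 TPM (2.60-fold, 1.32 ± 0.07, adjusted p = 0.000836). Both pairs of shSafb values lay well clear of the shCtrl pairs. Ttk, the Mps1 kinase that starts checkpoint signalling, had 4.27 and 3.94 TPM against 10.49 and 11.3 TPM (2.65-fold, 1.24 ± 0.09, adjusted p = 0.00139). Mad2l1, encoding the Mad2 protein that binds Cdc20, had 16.4 and 15.6 TPM against 27.5 and 26.8 TPM (1.70-fold, 0.76 ± 0.06, adjusted p = 0.00173). Bub3, the WD-repeat partner of Bub1 and BubR1, was the most abundant of the 5 and overlapped between groups. Its libraries stood at 57.4 and 59.2 TPM in shCtrl and 58.3 and 50.2 TPM in shSafb (-0.08 ± 0.09, adjusted p = 0.504). The level of Bub1b relative to its partner Bub3 thus went from 0.179 and 0.167 in the shCtrl libraries to 0.462 and 0.506 in the shSafb libraries, and that of Mad2l1 relative to Bub3 from 0.285 and 0.263 to 0.472 and 0.534.

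All 3 mitotic kinases of the Polo, Aurora A and Nek families rose, by 2.31-fold to 2.69-fold. Plk1, the Polo-like kinase that acts at centrosomes, kinetochores and the midzone, had 7.76 and 7.64 TPM in shCtrl and 19.8 and 21.7 TPM in shSafb (2.69-fold, 1.34 ± 0.08, adjusted p = 0.000934). Aurka, the centrosomal Aurora kinase, had 12.5 and 11.9 TPM against 28.8 and 27.6 TPM (2.31-fold, 1.17 ± 0.07, adjusted p = 0.000863). Nek2, a kinase that splits centrosomes before mitosis, had 9.35 and 8.52 TPM against 22.2 and 20.2 TPM (2.37-fold, 1.18 ± 0.09, adjusted p = 0.00132). In all 3 both shSafb libraries lay above both shCtrl libraries, as in 35.5% of all tested genes.

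The chromosomal passenger complex corrects faulty attachments, and all 4 of its genes rose, by unequal factors. Its kinase gene Aurkb had 9.80 and 11.9 TPM in shCtrl and 20.7 and 21.6 TPM in shSafb (1.95-fold, 0.93 ± 0.12, adjusted p = 0.00546). Birc5, encoding survivin, had 16.0 and 14.7 TPM against 34.7 and 32.9 TPM (2.21-fold, 1.12 ± 0.07, adjusted p = 0.000911). Incenp, the scaffold of the complex, rose least, from 17.0 and 17.1 TPM to 24.0 and 24.1 TPM (1.41-fold, 0.49 ± 0.06, adjusted p = 0.00514). The libraries of each group were close together for Incenp, and the groups were apart. Cdca8, encoding borealin, rose 2.03-fold (0.94 ± 0.09). Relative to Incenp, Aurkb went from 0.575 and 0.695 to 0.862 and 0.896, and Birc5 from 0.936 and 0.857 to 1.45 and 1.37. Sgo1, shugoshin, which protects centromeric cohesin, was among the least abundant genes, with 2.33 and 2.16 TPM against 5.53 and 6.15 TPM (2.60-fold, 1.10 ± 0.11, adjusted p = 0.00289).

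The outer kinetochore genes all rose, 7 of 7, and their summed level was 2.53-fold higher in shSafb. Cenpf, a large protein of the kinetochore corona and nuclear matrix encoded on chromosome 1 (189640606 to 189688086, minus strand, mm10), rose most of the 48 genes. It had 1.35 and 1.76 TPM in shCtrl and 9.69 and 10.7 TPM in shSafb (6.56-fold, 2.15 ± 0.14, adjusted p = 0.00104). Its start region, shown above, holds the CHR core letters 2 bases past the start. Knl1, the scaffold on which Bub1 and Bub3 dock, was the lowest expressed of the 48 in shCtrl, at 1.15 and 1.09 TPM, and stood at 3.42 and 4.54 TPM in shSafb (3.56-fold, 1.24 ± 0.16, adjusted p = 0.00505). Cenpe, the kinetochore-bound motor, had 1.28 and 1.23 TPM against 3.46 and 3.57 TPM (2.80-fold, 1.02 ± 0.12, adjusted p = 0.00404). These 3 were all under 2 TPM in both shCtrl libraries. The 4 subunits of the Ndc80 complex, the main microtubule coupler, rose by 1.47-fold to 3.09-fold. Ndc80 had 2.45 and 3.25 TPM against 8.31 and 8.34 TPM (2.92-fold, 1.30 ± 0.15, adjusted p = 0.00364). Spc24 had 5.22 and 6.14 TPM against 19.7 and 15.5 TPM (3.09-fold, 1.49 ± 0.16, adjusted p = 0.00307). Nuf2 rose 2.46-fold (1.21 ± 0.12), while Spc25, the partner of Spc24, had 11.4 and 10.3 TPM against 16.1 and 15.7 TPM (1.47-fold, 0.54 ± 0.08, adjusted p = 0.00618). Spc25 was the most abundant subunit in both shCtrl libraries but not in shSafb: the ratio of Spc24 to Spc25 was 0.459 and 0.598 in shCtrl and 1.23 and 0.983 in shSafb.

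Inner kinetochore genes, which encode subunits of the constitutive centromere-associated network, had the smallest median change of the 10 role groups. Of the 6, 2 rose, 1 fell and 3 did not pass the test, with a median change of 0.41 and a summed level 1.27-fold higher. The shares called over all tested genes were 21.9% higher and 22.4% lower. Cenpi had 3.92 and 3.61 TPM in shCtrl and 6.36 and 6.71 TPM in shSafb (1.74-fold, 0.68 ± 0.10, adjusted p = 0.00673). Cenpm had 5.18 and 6.80 TPM against 13.3 and 10.8 TPM (2.02-fold, 0.93 ± 0.18, adjusted p = 0.0147), a call that was lost without shSafb replicate 1 (0.80 ± 0.21, adjusted p = 0.0612). Cenpt, which links the centromere to the Ndc80 complex, lies on chromosome 8 (105844673 to 105853278, minus strand, mm10) and was the only gene of the 48 called lower. It had 13.4 and 13.7 TPM in shCtrl and 9.94 and 10.2 TPM in shSafb (1.35-fold lower, -0.37 ± 0.08, adjusted p = 0.019). The groups did not overlap, but the call did not survive leaving out shCtrl replicate 2 (adjusted p = 0.0712), shSafb replicate 1 (adjusted p = 0.0881) or shSafb replicate 2 (adjusted p = 0.0714). Cenpn, which binds the Cenpa nucleosome, had 3.50 and 2.49 TPM against 4.24 and 4.16 TPM (0.41 ± 0.15, adjusted p = 0.0835). Cenph had 4.08 and 3.12 TPM against 4.03 and 4.78 TPM, with the groups overlapping (0.26 ± 0.15, adjusted p = 0.216). Its partner Cenpk had 4.10 and 4.32 TPM against 7.74 and 4.32 TPM, so that shSafb 1 alone was high (0.41 ± 0.26, adjusted p = 0.254); without shSafb replicate 2 it was called higher (0.78 ± 0.14, adjusted p = 0.028). The ratio of Cenpf in the corona to Cenpt in the inner layer was 0.101 and 0.128 in shCtrl and 0.976 and 1.05 in shSafb. Cenpf rose most of the 48 and Cenpt is the only one called lower, so this ratio compares extremes and not the layers. Whether the inner group differed from the outer was not tested beyond these values.

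**Figure D4:**
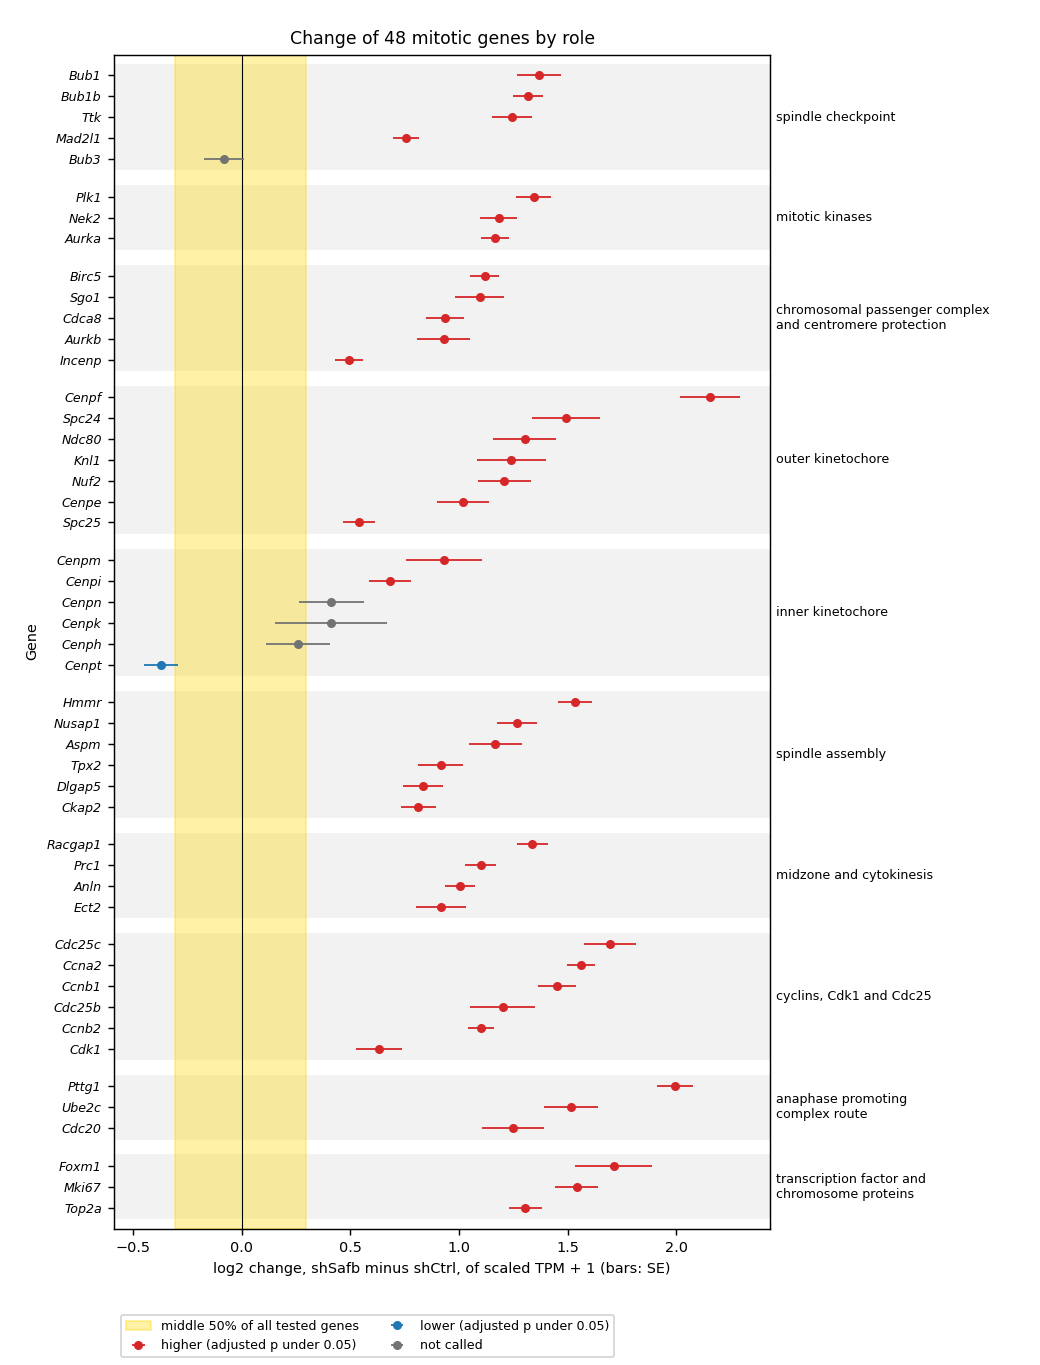
Log2 change (shSafb minus shCtrl, log2(scaled TPM + 1) scale) of each of the 48 genes by role; points are limma estimates, bars are 1 standard error, and the yellow band is the middle 50% of all tested genes. Cenpf is highest at 2.15, the 4 genes not called are Bub3, Cenph, Cenpk and Cenpn, and Cenpt is the gene called lower at -0.37.

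All 6 spindle assembly genes rose, by 1.81-fold to 3.14-fold. Hmmr, a microtubule-binding protein of spindle poles, had 6.51 and 6.55 TPM in shCtrl and 19.8 and 21.2 TPM in shSafb (3.14-fold, 1.54 ± 0.08, adjusted p = 0.000797). Aspm, a spindle pole protein whose loss causes small brains, had 1.95 and 1.79 TPM against 4.98 and 5.76 TPM (2.87-fold, 1.17 ± 0.12, adjusted p = 0.00302). Nusap1, which bundles microtubules around chromosomes, had 3.402 and 3.409 TPM against 9.62 and 9.27 TPM (2.77-fold, 1.27 ± 0.09, adjusted p = 0.00135). In each of the 3 the libraries of a group lay far closer to each other than to the other group. Tpx2, the activator of Aurora A on the spindle, rose 1.96-fold (0.92 ± 0.10), Dlgap5 1.81-fold (0.83 ± 0.09) and Ckap2 1.82-fold (0.81 ± 0.08).

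The 4 genes of the midzone and cytokinesis rose by 1.98-fold to 2.59-fold. Racgap1, a subunit of the centralspindlin complex, had 14.4 and 12.9 TPM in shCtrl and 34.6 and 36.1 TPM in shSafb (2.59-fold, 1.34 ± 0.07, adjusted p = 0.0008). Ect2, the exchange factor it activates to build the contractile ring, had 6.29 and 7.33 TPM against 12.99 and 13.99 TPM (1.98-fold, 0.92 ± 0.12, adjusted p = 0.00473). Prc1, which crosslinks midzone microtubules, had 14.8 and 15.5 TPM against 33.3 and 32.8 TPM (2.18-fold, 1.10 ± 0.07, adjusted p = 0.00104). Anln, anillin, the scaffold of the contractile ring, rose 2.05-fold (1.005 ± 0.068). In all 4 both shSafb libraries lay above both shCtrl libraries, which was so for 35.5% of all tested genes. Incomplete cytokinesis is a known source of binucleate hepatocytes in the liver.

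The fold changes of the cyclins were larger than that of Cdk1, the kinase they activate; these differences were not tested. Ccna2, cyclin A2, had 11.35 and 11.36 TPM in shCtrl and 34.1 and 35.6 TPM in shSafb (3.07-fold, 1.56 ± 0.07, adjusted p = 0.00062). Ccnb1, cyclin B1, had 12.0 and 13.3 TPM against 35.6 and 35.5 TPM (2.82-fold, 1.45 ± 0.09, adjusted p = 0.000934). Ccnb2, cyclin B2, had 20.03 and 18.55 TPM against 40.7 and 42.8 TPM (2.17-fold, 1.10 ± 0.06, adjusted p = 0.000863). Each cyclin was clearly separated between the groups. Cdk1 itself had 13.6 and 15.6 TPM against 22.0 and 23.4 TPM (1.56-fold, 0.63 ± 0.10, adjusted p = 0.0101). In the shCtrl libraries cyclin B1 stood below Cdk1, with a TPM ratio of 0.880 and 0.851, and in the shSafb libraries above it, at 1.62 and 1.52. Cyclin A2 crossed Cdk1 likewise, from 0.835 and 0.728 to 1.55 and 1.52. The Cdc25 phosphatases remove the inhibitory phosphates from Cdk1. Cdc25c had 2.32 and 2.73 TPM against 9.85 and 10.7 TPM (4.05-fold, 1.69 ± 0.12, adjusted p = 0.00127), and Cdc25b had 2.37 and 1.74 TPM against 5.39 and 6.42 TPM (2.87-fold, 1.20 ± 0.15, adjusted p = 0.00482). Cdc25a, the family member that also acts at the start of S phase, is not among the 48 and went the other way, as given further on.

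Of the route through the anaphase promoting complex, all 3 genes rose, and their summed level was 3.21-fold higher. Pttg1, securin, which holds separase inactive until anaphase, lies on chromosome 11 (43420250 to 43426251, minus strand, mm10). It had 10.6 and 11.6 TPM in shCtrl and 46.6 and 45.9 TPM in shSafb (4.18-fold, 1.99 ± 0.08, adjusted p = 0.000614). No CHR core letters are in its RefSeq window, which ends at 43426231, short of the upstream end of the gene given here. Ube2c, the conjugating enzyme that supplies ubiquitin to the complex, had 8.22 and 7.13 TPM against 21.04 and 25.97 TPM (3.06-fold, 1.52 ± 0.12, adjusted p = 0.00175). Cdc20, the activator that the checkpoint holds back, had 11.1 and 13.7 TPM against 28.0 and 32.5 TPM (2.44-fold, 1.25 ± 0.14, adjusted p = 0.00376). Libraries of a group spread more for Cdc20 and Ube2c than for Pttg1, and the groups stayed apart. Relative to Fzr1, the activator that takes over from Cdc20 in late mitosis and G1, Cdc20 went from 0.972 and 1.35 to 2.37 and 2.46.

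The transcription factor and chromosome proteins Foxm1, Mki67 and Top2a rose as well. Foxm1, which activates G2 and mitosis genes, had 5.12 and 3.26 TPM in shCtrl and 16.0 and 15.0 TPM in shSafb (3.69-fold, 1.71 ± 0.18, adjusted p = 0.00302). Relative to their mean, the shCtrl libraries of Foxm1 were further apart than those of the other 47 genes, yet both were far below shSafb. Mki67, encoding the Ki-67 proliferation marker that coats mitotic chromosomes, had 5.29 and 4.37 TPM against 15.9 and 15.5 TPM (3.24-fold, 1.54 ± 0.10, adjusted p = 0.00105). Top2a, the topoisomerase that untangles sister chromatids, was among the most abundant of the 48, with 58.6 and 49.5 TPM against 134 and 130.5 TPM (2.45-fold, 1.31 ± 0.08, adjusted p = 0.000878).

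Other genes of the same pathways were followed through 4 lists, which hold none of the 48 and have medians between -0.03 and 0.37. Of 29 tested other kinetochore genes, 13 rose and 16 did not pass, with a median change of 0.37. Over all tested genes the shares called were 21.9% higher and 22.4% lower. Ska1 was below the level tested. Kntc1, the Rod subunit of the RZZ complex that brings dynein to kinetochores, had 4.41 and 3.99 TPM in shCtrl and 9.70 and 9.08 TPM in shSafb (1.02 ± 0.10, adjusted p = 0.00234). Haspin, the kinase that marks histone H3 for the passenger complex, had 3.14 and 3.45 TPM against 7.995 and 7.479 TPM (1.05 ± 0.11, adjusted p = 0.00301). Each of the 2 had separate groups, and the changes were near the median of the 48. The count of 13 fell to 8 without shCtrl replicate 2 and to 8 with no filter on low TPM. Mis12 was not called, since its shCtrl libraries were unlike, at 18.6 and 8.73 TPM, with shSafb at 21.6 and 21.7 TPM. Zwint, Dsn1 and Mad1l1 had overlapping groups and changes of -0.002, -0.007 and 0.006.

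In the list of 19 subunits and regulators of the anaphase promoting complex 5 rose, 1 fell and 13 were not called, with a median change of 0.18. The 5 of 19 is close to the 21.9% called higher over all tested genes, so the count is no result about the list. Espl1, separase, which cuts cohesin at anaphase, had 2.48 and 1.89 TPM in shCtrl and 5.03 and 5.38 TPM in shSafb (0.99 ± 0.13, adjusted p = 0.00559). Anapc1, the largest subunit, had 54.6 and 54.0 TPM against 68.6 and 72.9 TPM (0.40 ± 0.06, adjusted p = 0.00613). The others that rose were Cdc16, Anapc5 and Fbxo5, the last being the Emi1 inhibitor (0.62 ± 0.10). Fbxo5 was not called without shSafb replicate 1 (adjusted p = 0.0526). Anapc13 was called lower (-0.24 ± 0.06, adjusted p = 0.0363; range over the alternatives 0.0178 to 0.151). The ratio of securin to separase was 4.27 and 6.14 in shCtrl and 9.26 and 8.54 in shSafb.

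The regulators of these promoters, 13 genes of DREAM, MuvB and B-Myb, held 4 that rose, 2 that fell and 7 that were not called, with a median change of -0.03. These shares are near those of all tested genes, 21.9% higher and 22.4% lower, and single genes are given below. Rbl2, the p130 pocket protein that predominates in DREAM of resting cells, had 36.5 and 31.5 TPM in shCtrl and 17.3 and 17.5 TPM in shSafb, 1.96-fold lower (-0.90 ± 0.08, adjusted p = 0.0018; range over the alternatives 0.00148 to 0.0142). Rbl1, the related p107 protein, had 5.54 and 5.04 TPM against 9.90 and 9.59 TPM (0.80 ± 0.09, adjusted p = 0.00344). The 2 pocket protein genes thus moved in opposite directions, each with separate groups. Mybl1, A-Myb, rose from 2.13 ± 0.275 to 5.56 ± 0.0404 TPM (1.09 ± 0.13, adjusted p = 0.00391), and Mybl2, B-Myb, from 1.88 ± 0.252 to 4.06 ± 0.327 TPM (0.84 ± 0.13, adjusted p = 0.00821; SD, n = 2, limma). Lin52 was called higher (0.66 ± 0.14, adjusted p = 0.0195, with a range of 0.0175 to 0.0809 over the alternatives) and Rbbp4 lower (-0.17 ± 0.05, adjusted p = 0.0456, with a range of 0.031 to 0.187). E2f4, the repressive E2F of DREAM, overlapped between groups (-0.03 ± 0.11, adjusted p = 0.865).

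Among 12 mitotic entry brakes, phosphatases and phosphatase regulators 4 rose, 2 fell and 6 were not called, with a median change of 0.17. The background over all tested genes was 21.9% higher and 22.4% lower. Mastl, the Greatwall kinase that restrains the phosphatase PP2A during mitosis, had 1.520 and 1.502 TPM in shCtrl and 5.26 and 6.06 TPM in shSafb (3.74-fold, 1.42 ± 0.12, adjusted p = 0.00194). Pkmyt1, which phosphorylates Cdk1 to inhibit it, rose from 2.90 ± 0.588 to 5.29 ± 0.254 TPM (SD, n = 2; limma adjusted p = 0.0149, range over the alternatives 0.0149 to 0.0682). Its fellow inhibitor Wee1 had overlapping groups at 9.18 and 7.37 TPM against 7.43 and 6.94 TPM. Cdc25a had 33.5 and 33.4 TPM in shCtrl and 25.9 and 26.1 TPM in shSafb (1.29-fold lower, -0.33 ± 0.06, adjusted p = 0.0116), a call lost without shSafb replicate 1 (0.0618) or 2 (0.0583). The ratio of Cdc25c to Cdc25a was 0.0693 and 0.0819 in shCtrl and 0.380 and 0.409 in shSafb, so Cdc25c remained the less abundant of the pair. Ensa and Ppp2r2a were called higher and Cdc14b lower, each at an adjusted p above 0.03 and each lost under several alternatives. Cdkn1a, the p21 inhibitor of cyclin-dependent kinases, had 57.0 and 46.4 TPM against 43.8 and 49.8 TPM and was not called (-0.11 ± 0.11, adjusted p = 0.444). In this list the count of genes called higher fell to 1 with no filter on low TPM. It fell to 2 with a filter at a mean of 0.1 TPM or with no trend of variance on intensity. It also fell when any 1 library was left out. Both genes called lower lost that call without shSafb replicate 1.

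**Figure D5:**
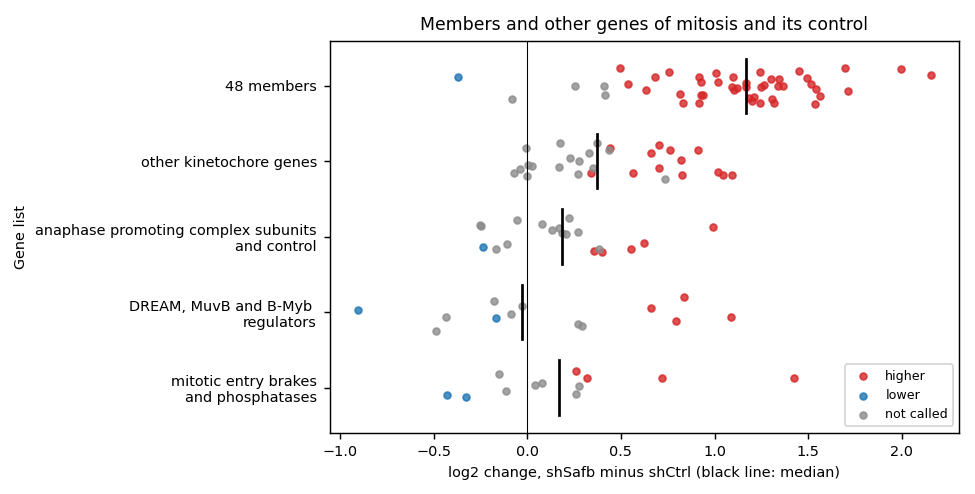
Log2 change (shSafb minus shCtrl) of every tested gene in the 48-gene set and in the 4 lists of other genes of the same pathways, each point being 1 gene coloured by its call and the black line the median. The mitotic genes have a median of 1.17, the other kinetochore genes 0.37, and the remaining 3 lists between -0.03 and 0.18.

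Some values depend on how reads were divided between overlapping or similar genes. The libraries were strand-specific, but no source used here says whether counting used strand. Ccna2 shares 510 of its 4083 exonic bases with Exosc9 on the other strand, Prc1 911 of 8225 with Rccd1, and Ube2c 592 of 2600 with Tnnc2. Cdc25c likewise shares 623 of 4919 with Gm3550. Smaller overlaps, of 298 bases or fewer, include Cenpk with Ppwd1 and Nusap1 with Oip5, which was itself called higher. On the same strand, Foxm1 overlaps Tex52 and Gm44596, and Top2a overlaps Gm23451. Gm3550, Tex52, Gm44596 and Gm23451 were each at 0.1515 TPM or less in every library. Exosc9 went from 15.6 to 17.0 TPM and Rccd1 from 7.73 to 7.35 TPM, neither called, and Tnnc2 was under 0.1 TPM in mean. Ccnb1 has 4 near-identical pseudogene copies, the closest (Ccnb1-ps) at 99.2% over 1287 bases. Ccnb1-ps, Gm12856 and Gm8416 were each at 0.38 TPM or less in every library, and no level was had for Gm7483. Ndc80 has a copy, 2700099C18Rik, at 95.05% over 303 bases, with 1.58 and 1.38 TPM in shCtrl and 3.18 and 4.50 TPM in shSafb. Mad2l1 and Mki67 each have a pseudogene copy at 0 TPM in every library, and no level was had for a copy of Racgap1. Levels of Ccnb1, Ndc80 and Racgap1 are uncertain to that extent.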

How the data were processed

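RNA was measured in 4 libraries of AML12 cells, 2 per group, grouped by title. Total RNA depleted of ribosomal RNA was made into stranded libraries, per the labels' protocols. The tools were HISAT2, StringTie, HTSeq and DESeq2, with mm10, per the submitters' processing notes; versions and the annotation release are not given in the sources used here. The deposited values are the authors' TPM, 1 per gene and library, summing to 999891 in shCtrl libraries and 999843 in shSafb libraries; depth is therefore unknown. Rows of the 6 identifiers present more than once were summed. Of 52192 identifiers, 52045 are in GENCODE mouse release 21, which gave coordinates and exons.

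The test kept 13111 genes whose mean TPM was 1 or more. Each library was divided by its median ratio to the geometric mean (factors 1.031, 0.991, 0.992 and 0.995), and log2(scaled TPM + 1) was fitted with limma 3.58.1 in R 4.3.3, two-sided, group only, with a trend of variance on intensity (residual degrees of freedom 2, prior 2.61). Printed levels are the deposited TPM. An exact permutation of 2 against 2 libraries cannot pass 0.05. The fit was tested on simulated data with independent noise and far fewer changed genes than were called here. Its error rate in these data was therefore not measured. Promoter letters came from a RefSeq table of GRCm38.p6, and copies from BLAST 2.17.0 (at least 95% identity). Other steps ran in Python 3.11.15 (numpy 2.4.6, pandas 2.3.3, matplotlib 3.10.9).

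The 48 genes, their roles and all lists were chosen with earlier results of these data known, so no list was tested and no p was adjusted over a list. All 48 genes are named by rule. Of each pathway list, the 2 called genes with the smallest p in each direction are named, plus others needed for the counts; Mis12, Zwint, Dsn1, Mad1l1, E2f4, Wee1 and Cdkn1a were added after their values were seen. Alternatives covered the pseudocount, the TPM filter, the scaling, small RNA and mitochondrial genes left out, and the trend. They also covered a replicate block, each library left out, a fold threshold and the promoter window.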

Additional observations from a re-analysis of the deposited data

How the results depend on the processing

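Over 11 alternatives no change turned direction among Safb and the genes called, and 45 of the 48 mitotic genes kept their call in all; Cenpk, Cenpm and Cenpt did not. Safb stayed called, at -0.52 to -0.60. The count of mitotic genes higher ran from 42 to 44, or 41 with a fold of at least 1.5. The median change of the 48 was 1.31 with a pseudocount of 0.1 and ran from 1.109 to 1.154 when each library was left out. The count of mitotic genes lower ran from 0 to 1 with a library left out and was 0 with a fold of at least 1.5; at an unadjusted limma p under 0.05 it was 1 (Cenpt) in every setting. Over all genes, 1303 were higher and 1408 lower with a fold of at least 1.5, and 1768 to 2124 were higher with a library left out. Same-numbered libraries did not deviate together over all tested genes (correlation -0.0641). The labels do not say whether they were paired, and 2 libraries a group cannot settle it. With a replicate block 43 mitotic genes were higher, as were 2540 of all genes. The causes of these differences were not tested. With 2 libraries a group and no read counts, small changes of genes near 1 TPM are the least certain, and a gene that missed the threshold is not shown to be unchanged.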
